A study of Arabidopsis thaliana with 3 samples.

Results

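On chromosome 3 of Arabidopsis thaliana, 959 HDA6-GFP ChIP-seq regions lay in the pericentromere and clear of protein-coding genes, out of 7547 regions in the whole list and 1392 on chromosome 3. A region was included if its midpoint lay at 11 to 17 Mb and more than 1 kb from the body of every protein-coding gene, a rule that uses position and no measured value. Chromatin immunoprecipitation followed by sequencing maps where a protein sits on DNA, and here the protein was histone deacetylase 6 (HDA6) fused to green fluorescent protein (GFP). The 2 ChIP samples came from 14-day-old transgenic seedlings of the Col-0 ecotype, grown in long days at 22 °C, that carried HDA6pro::HDA6:GFP, a fusion under the HDA6 promoter. The single input sample came from the same kind of seedlings, and all 3 samples share the transgene. Whether the seedlings also keep a working endogenous HDA6 is not given in the sources used here. DNA of at least 5 immunoprecipitations was pooled for a library. A GFP antibody is listed for every sample, the input included, and no untransformed or mock immunoprecipitation is among the samples.

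HDA6 removes acetyl groups from histone tails, which compacts chromatin and represses transcription. In Arabidopsis it is known for silencing transposons, repeats and surplus ribosomal RNA genes, in part together with the DNA methyltransferase MET1. Pericentromeres are the gene-poor heterochromatin on either side of the centromere, rich in transposons and, at their centre, in short tandem satellite repeats that reference genomes often hold incompletely. RefSeq commonly places Arabidopsis transposon genes in its class of pseudogenes, but the gene table used here does not say which of them are transposons.

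The deposited lists give a start and an end per region and no height, count or p-value, so position and width are the only measurements. Replicates are not separated in either list and read depth is unknown. No value below therefore has a replicate error, and no difference was tested over samples. Intervals are 95% Wilson or Poisson intervals. They reflect counting error alone and are too narrow, since neighbouring regions depend on each other. Of the 6 Mb in the window, 4.20 Mb (69.9%) lay clear of protein-coding genes by the rule. This sequence is called gene-clear below and is the denominator of the densities.

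The regions were dense and short. There were 229 midpoints per Mb of gene-clear sequence in the window. The 99 window regions in protein-coding genes (69) or their 1-kb flanks (30) came to 54.9 per Mb of their own sequence. On the arms of chromosome 3, 64 regions lay as far from genes, or 31.9 per Mb of gene-clear sequence there. Width had a median of 354 bp, quartiles of 290 and 503.5 bp and a range of 167 to 14798 bp. In the arms, the regions outside genes had a median width of 318 bp. Together the regions covered 12.2% of the gene-clear sequence of the window. The 65 regions wider than 1 kb, 6.78% of all, held 31.6% of the covered length.

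Regions were concentrated just left of the centromere midpoint, which was set at 14 Mb. The 500 kb from 13.5 to 14 Mb held 282 regions, or 29.4% of the total, and 39.1% of the covered length. Density there was 573 per Mb of gene-clear sequence (95% Poisson interval 508 to 643), against 183 per Mb in the rest of the window. This stretch was picked as the 500-kb bin with the most regions. That it stands above the rest therefore follows from the choice, and the interval does not allow for it. Regions covered 41.0% of that stretch. The next bins on both sides, at 13 to 13.5 Mb and 14 to 14.5 Mb, had 233 and 231 regions per Mb, with intervals of 190 to 284 and 188 to 280. The lowest density, 44.5 per Mb (19.2 to 87.7), was at 16 to 16.5 Mb, with 8 regions.

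**Figure D1:**
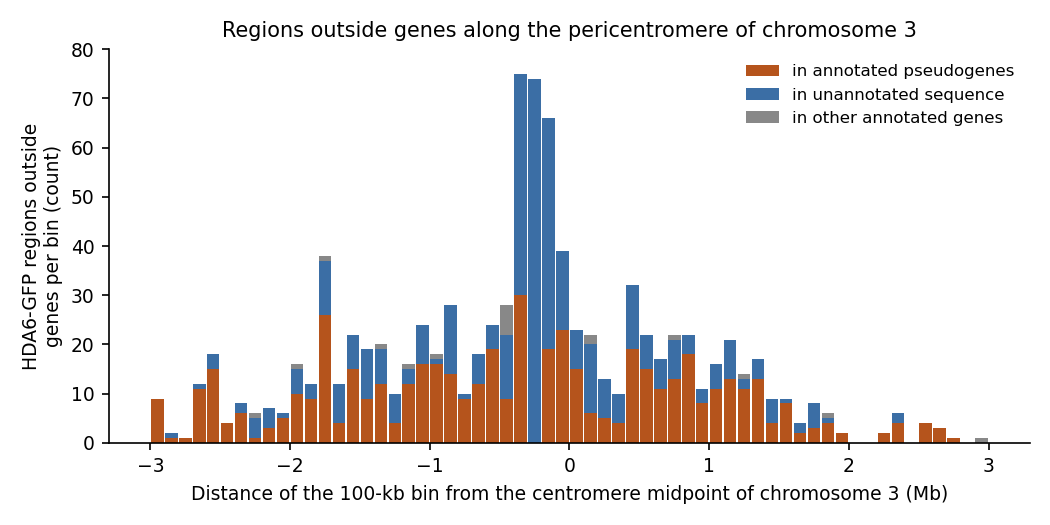
Number of HDA6-GFP regions outside genes (y axis, count) in 100-kb bins along the pericentromere of chromosome 3, by distance from the centromere midpoint (x axis, Mb), stacked by what the midpoint lies in. The 3 tallest bins, with 75, 74 and 66 regions, stand side by side just left of the midpoint. Annotated pseudogenes hold 0 midpoints in the middle one of them and make up 4.72% of its gene-clear bases.

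The distribution was uneven between the sides of 14 Mb, a set midpoint that was not measured from these data. Left of 14 Mb lay 642 regions and right of it 317, so that 66.9% were on the left (95% Wilson interval 63.9 to 69.8%), where 58.2% of the gene-clear sequence lies. Density was 263 per Mb on the left and 181 on the right. Without the densest 500 kb the left side had 360 regions, which were 53.2% of the remaining regions. The 58.2% of sequence given above still includes that stretch. Left density was then 185 per Mb, near the 181 per Mb of the right side, which still held its own first 500 kb. With the first 500 kb right of 14 Mb also left out, the right side had 164 per Mb. The left side thus stayed higher, by a smaller margin than with both stretches kept. The far right of the window was sparse, and the widest gap between neighbouring regions, 282 kb, ran from 16709688 to 16991290.

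Annotated pseudogenes, the class that commonly holds transposon genes, contained the midpoints of 523 of the 959 regions (54.5%, 95% Wilson interval 51.4 to 57.7%) and made up 42.5% of the gene-clear bases. Unannotated sequence contained 418 midpoints (43.6%) and made up 54.0% of the bases. Transcribed pseudogenes, which RefSeq keeps as a class of their own, held 14, and other RNA genes held 4. Counted by covered bases rather than by midpoints the order was different. Regions covered 11.9% of the pseudogene bases and 12.7% of the unannotated bases. The regions in unannotated sequence were wider, with 52 of 418 over 1 kb, against 11 of 523 in pseudogenes.

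The 2 kinds of sequence differed in where their regions lay. From 13.5 to 14 Mb, 195 of 282 midpoints (69.1%, 63.5 to 74.3%) were in unannotated sequence, which was 65.9% of the bases there. Pseudogenes held 81 midpoints (28.7%) on 32.3% of the bases. The 65.9% of bases thus lies inside the interval of the 69.1% of midpoints. Density in that stretch was 601 per Mb in unannotated sequence and 509 per Mb in pseudogenes, without an interval for either. The 100 kb from 13.7 to 13.8 Mb weighed on these values. It held 74 midpoints in unannotated sequence and 0 in pseudogenes, which were 4.72% of its bases. In the rest of the window, pseudogenes held 442 of 677 midpoints (65.3%, 61.6 to 68.8%) on 43.8% of the bases. Density there was 272 per Mb in pseudogenes and 115 per Mb in unannotated sequence, and the covered shares of bases were 10.9% and 6.27%. In the densest stretch the covered shares were 21.4% in pseudogenes and 51.0% in unannotated sequence.

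**Figure D2:**
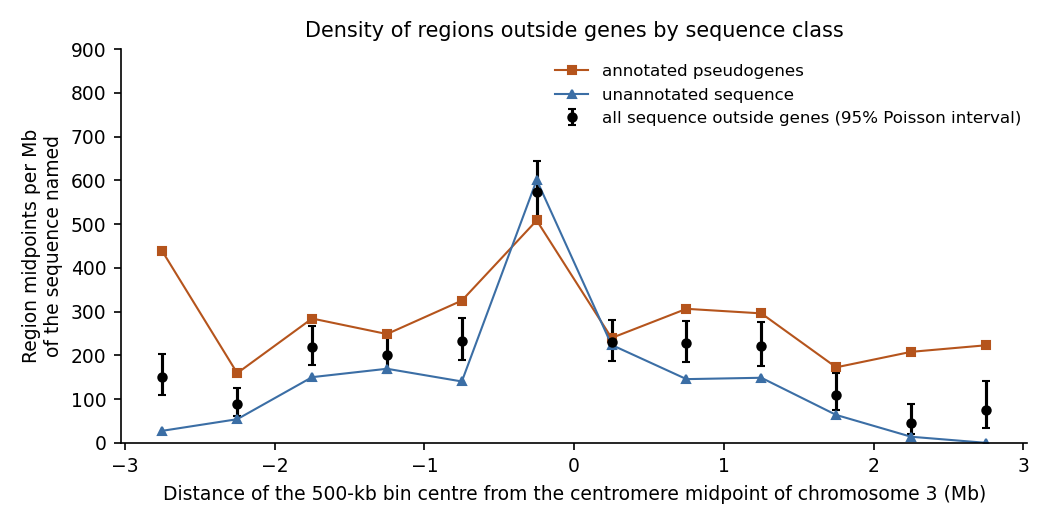
Region midpoints per Mb (y axis) in 500-kb bins, by distance of the bin centre from the centromere midpoint (x axis, Mb), for all gene-clear sequence with 95% Poisson intervals, for annotated pseudogenes and for unannotated sequence. Pseudogenes lie above unannotated sequence in 11 of the 12 bins, and unannotated sequence lies above only in the densest one, at 601 against 509 per Mb.

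Outside the densest stretch, regions in unannotated sequence lay somewhat closer to pseudogenes than the unannotated bases did. Regions were classed by midpoint, so some of these regions overlapped a pseudogene with an edge. Of 223 such regions, 127 (57.0%, 50.4 to 63.3%) had a midpoint within 1 kb of a pseudogene or transcribed pseudogene, where 46.8% of the unannotated bases lie. Their median distance was 786 bp, against 1125 bp for the unannotated bases. In the densest stretch the order was turned round. There 34 of 195 (17.4%, 12.8 to 23.4%) lay within 1 kb, where 29.3% of the unannotated bases lie, and the median distances were 4499 and 2747 bp. Of those 195 regions, 74 lay at 13.7 to 13.8 Mb, where pseudogenes were 4.72% of the gene-clear bases. The part of that 100 kb in the turned order was not tested.

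Width varied with the same positions. From 13.5 to 14 Mb the median was 420.5 bp and 42 of 282 regions (14.9%) were wider than 1 kb. In the rest of the window the median was 342 bp and 23 of 677 (3.40%) were wider than 1 kb. The difference lay in unannotated sequence, with a median width of 508 bp in the densest stretch and 341 bp elsewhere. In pseudogenes the medians were 350 and 345 bp.

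**Figure D3:**
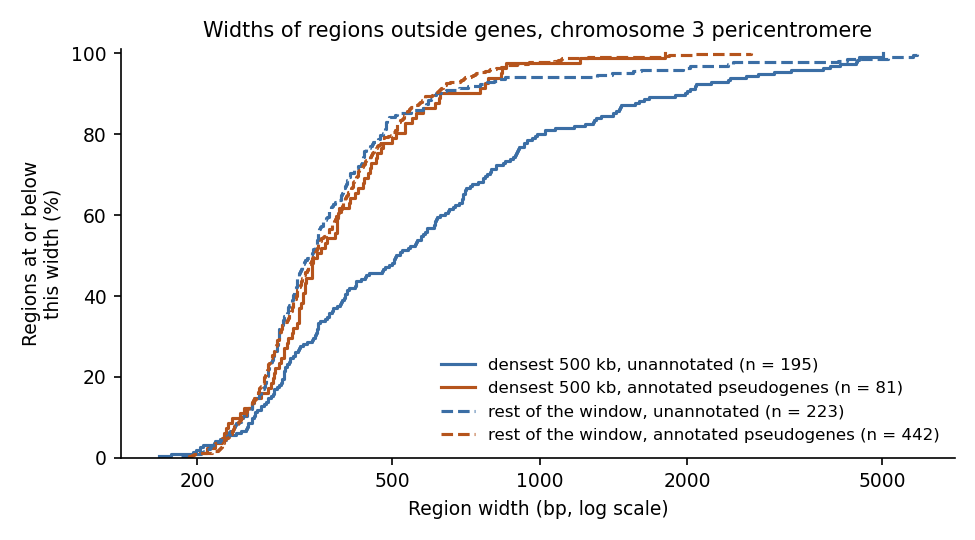
Cumulative share of regions (y axis, %) by width (x axis, bp, log scale) in the densest 500 kb and in the rest of the window, for unannotated sequence and annotated pseudogenes. The curve for the 195 unannotated regions of the densest stretch lies to the right, with a median of 508 bp, and the other 3 have medians of 341 to 350 bp.

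The widest regions lay in 2 places. Of the 15 widest, 9 were between 13.5 and 14 Mb and 6 lay within 20 kb of the widest region, and 13 of the 15 touched no annotated gene. The widest, at 14191644 to 14206441, measured 14798 bp and overlapped 9 RNA genes. Among them are AT3G41768 and AT3G41979, annotated as ribosomal RNA genes, and the microRNA gene MIR5642a (AT3G06345). The others are the long non-coding RNA genes AT3G06325 and AT3G06355, the non-coding RNA gene AT3G41761 and the genes AT3G00650, AT3G00660 and AT3G06365 of the class misc_RNA. Its midpoint lay 2177 bp from the nearest protein-coding gene, but the region also spans AT3G41762, annotated as protein-coding.

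Around the ribosomal RNA genes, 13 regions formed an almost unbroken block from 14172140 to 14225338. They covered 96.4% of its 53.2 kb, and the narrowest measured 229 bp. After the widest region the largest were those at 14178094 to 14183971 (5878 bp), 14219567 to 14225338 (5772 bp) and 14211976 to 14217101 (5126 bp). The last of these overlapped AT3G00670, another misc_RNA gene, and the other 2 touched no annotated gene. Input intervals covered 96.4% of the same block, and the widest input interval in it measured 12341 bp, under the ribosomal RNA genes. Ribosomal RNA genes are present in many more copies than the reference holds, so reads of other copies could map here. Their part in the width of the block was not tested.

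In the densest stretch, the widest regions were those at 13593839 to 13598850 (5012 bp) and 13588770 to 13593773 (5004 bp), which are neighbours. Those at 13780073 to 13784560 (4488 bp), 13770551 to 13774978 (4428 bp) and 13775942 to 13780034 (4093 bp) lay close together, with a region of 899 bp between the last 2, over 238 kb from the nearest protein-coding gene. The region at 13704837 to 13709256 measured 4420 bp. None of these 6 touched an annotated gene. The gene-clear stretch that holds them ran for 489 kb with 281 regions, and 70 genes other than protein-coding ones are annotated in it, 63 of them pseudogenes.

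Neighbouring regions were often close together. The median gap was 1132.5 bp over the 958 gaps, 48.7% of the gaps were at most 1 kb and 21.6% at most 200 bp. From 13.5 to 14 Mb the median gap was 359 bp, against 1913 bp between regions outside that stretch. Joining regions with gaps of up to 1 kb gave 492 groups, of which 323 were single regions and 24 held 5 or more. Those 24 groups held 273 regions. The largest group had 47 regions from 13681158 to 13738735 and covered 77.2% of its 57.6 kb. The next had 46 regions from 13744601 to 13798767 and covered 82.5%. Another, with 23 regions from 13843338 to 13871480, covered 88.9%. Of the 9 groups with 10 or more regions, 5 began between 13.5 and 14 Mb.

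Counted by gene, 323 of the 723 annotated pseudogenes in the gene-clear sequence overlapped a region by at least 1 bp (44.7%, 95% Wilson interval 41.1 to 48.3%). Over the nuclear genome 48.7% of pseudogenes overlapped any ChIP region, and within 3 Mb of the 5 centromere midpoints 52.6% did. The share on chromosome 3 was thus not above either background. Both backgrounds include chromosome 3 and set no distance from protein-coding genes, so the sets of pseudogenes are not alike. Transcribed pseudogenes overlapped a region in 14 of 74 cases (18.9%, 11.6 to 29.3%), against 12.2% in the genome and 25.1% near the centromeres. Long non-coding RNA genes did so in 4 of 67 cases (5.97%, 2.35 to 14.4%), against 1.9% in the genome and 7.16% near the centromeres. Of these 4, AT3G06355 lay under the widest region. The others were AT3G06465, with a region of 399 bp, AT3G06255, with one of 330 bp, and AT3G06055, with one of 328 bp.

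Longer pseudogenes carried a region more often. The share with a region was 22.9% up to 500 bp (11 of 48), 46.3% at 2 to 4 kb (112 of 242) and 61.8% at 4 to 8 kb (89 of 144), and all 5 pseudogenes longer than 8 kb had one. A long gene offers more room for a region. Per kb of gene the midpoints numbered 0.287 up to 500 bp, 0.380 at 500 bp to 1 kb, 0.384 at 1 to 2 kb, 0.263 at 2 to 4 kb, 0.246 at 4 to 8 kb and 0.754 in the 5 longest, so that they followed no single direction with length. Covered shares in the same order were 12.3%, 16.8%, 16.01%, 10.2%, 9.86% and 34.5%.

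**Figure D4:**
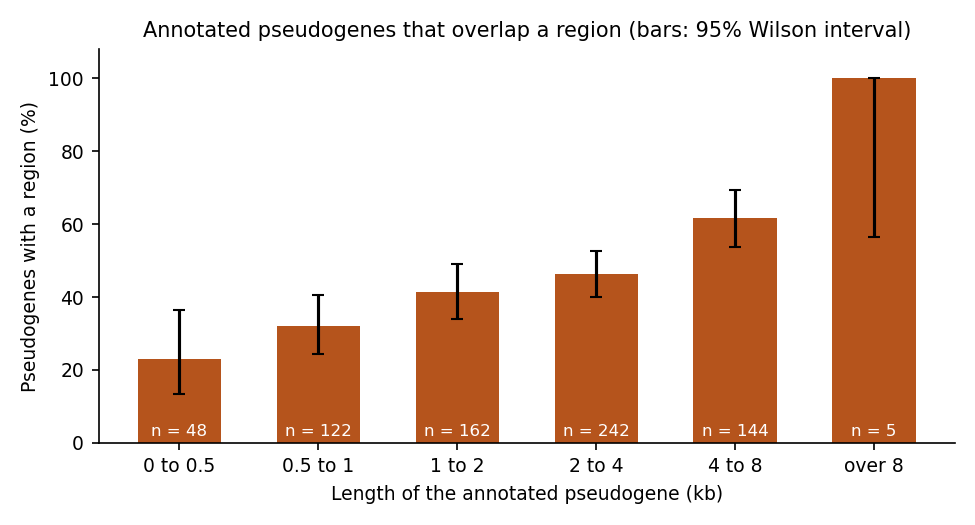
Share of annotated pseudogenes that overlap a region (y axis, %) by gene length (x axis, kb), with 95% Wilson intervals and the number of genes on each bar. The share is 22.9% in the shortest class and 61.8% at 4 to 8 kb, and the class over 8 kb has 5 genes.

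Most pseudogenes with a region had few. Of the 723, 184 had 1 region, 139 had 2 or more and 26 had 4 or more. In the median pseudogene with a region, 20.9% of the body was covered, and 60 pseudogenes were covered over more than 50% of their length. Midpoints lay along the whole body. Measured from the nearer end, the outermost 10% of the length held 22.6% of midpoints, the next 10% held 23.5%, and the innermost 10% held 16.4%, where an even spread would give equal shares.

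The pseudogene with the most regions was AT3G29615. Its 12 regions, 290 to 855 bp wide, lay between 11416818 and 11424304 and covered 70.7% of the body. AT3G30668 had 8 regions from 12215204 to 12224152 and 39.9% of its body covered. AT3G42996, with 7 regions from 15038655 to 15043519, had the highest covered share of the 10 pseudogenes richest in regions, 86.9%. AT3G32110 also had 7 regions, from 13097951 to 13103933, and 40.7% covered. The other 6 were AT3G43304, AT3G29076, AT3G33124 and AT3G33066 with 6 regions each and AT3G29480 and AT3G30802 with 5 each, covered over 34.9 to 55.6% of their length. Of these 10, AT3G33124 and AT3G33066 lay in the densest 500 kb. Input intervals covered 96.9 to 99.4% of the 10 genes. AT3G29615, AT3G29076 and AT3G29480 lie at 11 to 11.5 Mb, where pseudogenes held 37 of 42 midpoints and their density was 438 per Mb, the highest outside the densest stretch.

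Of the 9 genes in the gene-clear sequence that have a symbol of their own, SADHU7-2 (AT3G31442) was the single one with a region. MIR5642a, under the widest region, is not among the 9, since it lies within 1 kb of AT3G41762. Sadhu elements are non-coding retrotransposons, and 83.5% of this copy was covered. SADHU3-1 and SADHU3-2, also in the window, had 0 regions. In the genome 4 of 16 Sadhu genes overlapped a region. The microRNA genes MIR849, MIR5638a, MIR5645c, MIR8174 and MIR8183 and the transcribed pseudogene EXPA19 had 0 regions.

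Density was higher farther from protein-coding genes, up to 50 kb. It was 76.6 per Mb at 1 to 2 kb from a gene (39 regions, 95% Poisson interval 54.5 to 105), 129 at 2 to 5 kb (107 to 154), 210 at 5 to 10 kb, 230 at 10 to 20 kb and 266 at 20 to 50 kb (227 to 309). Beyond 50 kb it was 607 per Mb, but 250 of those 258 regions are in the densest 500 kb. Without that stretch the values were 77.0, 127, 203, 231 and 263 per Mb up to 50 kb, and 232 per Mb beyond it, on 8 regions. Pseudogenes made up 22.5% of the bases at 1 to 2 kb and 50.3% at 5 to 10 kb. Their part in the difference was not tested. The share of midpoints in pseudogenes was 56.4% at 1 to 2 kb and 66.7% at 5 to 10 kb.

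**Figure D5:**
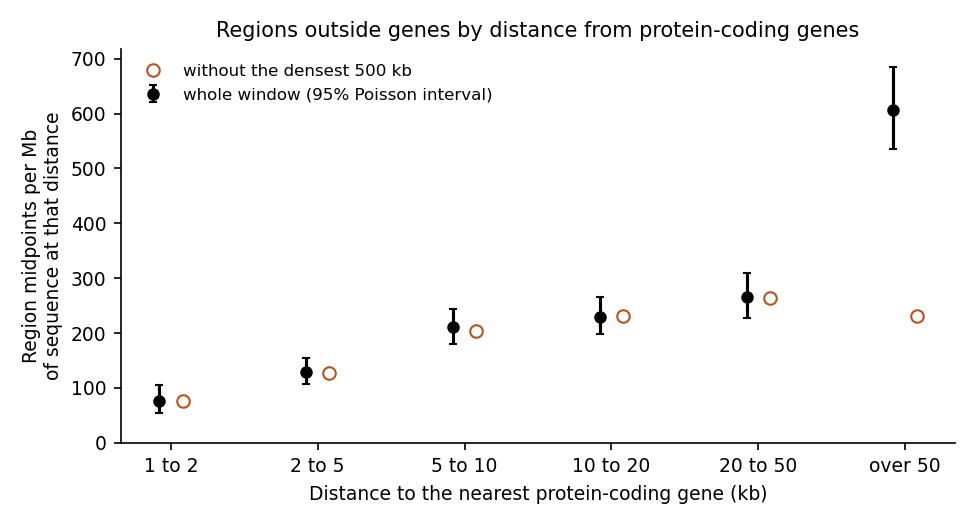
Region midpoints per Mb of gene-clear sequence (y axis) by distance to the nearest protein-coding gene (x axis, kb), for the whole window with 95% Poisson intervals and without the densest 500 kb. The value is 76.6 per Mb at 1 to 2 kb and 266 per Mb at 20 to 50 kb, and beyond 50 kb it is 607 per Mb with the densest stretch and 232 per Mb without it.

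At the limits of the rule the regions were ordinary in width. The members nearest to a gene lay 1042.5 and 1058 bp from it and were 265 and 224 bp wide, and the nearest regions left out for a gene lay 988 and 986.5 bp from one, with 340 and 255 bp. At 11 Mb the first members began at 11018573 and 11056749 and were 454 and 301 bp wide, and the next gene-clear regions outside began at 10938119 and 10478195, with 306 and 264 bp. At 17 Mb the last members began at 16991290 and 16709348, with 262 and 341 bp, and those beyond began at 17108943 and 17111442, with 294 and 350 bp. Of the 959 members, 5 had an edge within 1 kb of a protein-coding gene and 1 of these, the widest region, overlapped the gene.

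Input intervals, the list from DNA without immunoprecipitation, covered 98.5% of the bases of the regions and 97.2% of the gene-clear bases outside them. Of the regions, 522 (54.4%, 95% Wilson interval 51.3 to 57.6%) lay wholly inside input intervals, and the lowest covered share of a region was 76.9%. The share wholly inside varied with width. It was 67.3% for regions of at most 290 bp, 53.0% at 291 to 354 bp, 60.5% at 355 to 503 bp and 36.7% for wider ones. A wider region has more room to cross the edge of an input interval. No like share is given for stretches outside the regions, of these widths or others. Neither the 54.4% nor the shares by width can therefore be called high or low. The input interval at the region midpoint had a median width of 1164 bp, against 978 bp at the gene-clear bases outside regions. In the densest stretch the same medians were 1170 and 961 bp, and input intervals covered 96.0% of the gene-clear bases, against 97.5% in the rest of the window. By width, the median input interval at the midpoint was 1078.5 bp for the 245 regions of at most 290 bp, 1012 bp for the 236 of 291 to 354 bp, 1234 bp for the 238 of 355 to 503 bp and 1452 bp for the 240 wider ones. How far input width follows read depth or copy number was not tested.

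The same rule, applied within 3 Mb of the other centromere midpoints, gave 757, 1101, 1231 and 1173 regions for chromosomes 1, 2, 4 and 5, in that order. The chromosome 3 density of 229 per Mb of gene-clear sequence stood beside 201, 291, 349 and 298 per Mb on chromosomes 1, 2, 4 and 5. The densest 500 kb held 29.4% of the regions on chromosome 3, beside 29.7%, 18.2%, 20.2% and 34.2% on those chromosomes. In it, the share of midpoints in unannotated sequence was 69.1% on chromosome 3, 79.1% on chromosome 1 and 72.3% on chromosome 5. It was lower on chromosome 2 (44.0%) and chromosome 4 (35.7%). Unannotated sequence was 65.9% of the gene-clear bases in that stretch on chromosome 3. The like share of bases was not computed for the other chromosomes, so these values do not tell where regions fall beyond how much sequence is unannotated. Regions wider than 1 kb made up 6.78% on chromosome 3 and 3.43%, 3.27%, 4.55% and 4.60% on chromosomes 1, 2, 4 and 5. Pseudogene bases were covered for 11.9% on chromosome 3 and for 12.3%, 19.3%, 23.8% and 16.9% on the others. The widest region measured 14798 bp on chromosome 3 and 6795, 137370, 21186 and 18277 bp on the others. The part of such wide regions in the covered shares was not tested. With pooled lists no difference between chromosomes could be tested.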

How the data were processed

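The authors deposited both lists, of ChIP regions and of input intervals, as other values, namely sequence name, start and end in bp, with no score. Bowtie and SICER are named with the TAIR10 build in the submitters' processing notes. No source used here gives their settings, the treatment of reads with several matches or how replicates were combined. Both lists carry no replicate number and were taken as pooled over their group. Starts are printed counted from 1. Genes came from the RefSeq table of assembly TAIR10.1, which served to name genes and to place regions in or near them. No gene coordinates are printed, and no sequence is shown because no genome sequence was used.

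Python 3.11.15 with pandas 2.3.3, numpy 2.4.6 and scipy 1.17.1 applied the rule and counted midpoints, bases and overlaps of at least 1 bp. A midpoint in several genes was assigned in the order pseudogene, transcribed pseudogene, other RNA gene. The code was tested on simulated data. No significance test was made, as the design held descriptive values only. Members, lists and the stretch from 13.5 to 14 Mb were chosen with earlier results of these data known. Named were the 15 widest regions, the 10 pseudogenes with most regions, genes with a symbol, RNA genes and the regions nearest each limit.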

Additional observations from a re-analysis of the deposited data

How the results depend on the processing

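Leaving out the densest stretch, 13.5 to 14 Mb, was an alternative chosen after the data were seen. Without it the density was 183 per Mb, the covered share 8.39%, the median width 342 bp, the share of midpoints in pseudogenes 65.3%, the share wholly inside input intervals 57.9% and the share left of 14 Mb 53.2%. With the regions at least as wide as the nuclear median alone, 534 regions were left, at 127 per Mb, with a covered share of 9.39% and a median width of 474.5 bp. Then 27.8% of pseudogenes had a region, and 49.1% of regions lay wholly inside input intervals. Keeping 500 bp or 2 kb from genes gave 214 or 249.5 per Mb and covered shares of 11.4% or 13.5%. Windows of 12 to 16 Mb or 10 to 18 Mb gave 266 or 208 per Mb and covered shares of 14.6% or 11.1%.

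The other 42 of 62 alternative values, over 8 results, stayed within the counting interval of the value given or, for the number of regions, within 1.5 times. They include the 2 multi-copy regions left out and a pseudogene counted only where at least 50% of a region lies in it. Leaving out 2 of 959 regions could hardly move these values. That alternative therefore does not show how far reads with several matches matter. No paired analysis was possible because the lists carry no replicate numbers, and for the same reason no replicate could be left out. The lists give no depth, so a gene without a region may still be bound below the detection of the list.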
